A study of Homo sapiens with 16 samples.

Results

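The 32 genes described here carry the synthesis of cholesterol and of fatty acids. They were taken as a list of symbols and matched to the Ensembl identifiers in the count tables of both cell lines, where all 32 were found among 60676 genes. The list was chosen with earlier results of these data known, so its shares beside those of all genes are descriptive. The sterol arm holds 23 of them, of which 18 encode enzymes and 5 regulators or transport proteins. The fatty acid arm holds 9, which are 8 enzymes and the regulator SREBF1. All 32 passed the filter on low counts, which left 21569 genes to be tested.

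Total RNA was profiled in 16 libraries of 2 human melanoma cell lines, with 8 libraries numbered 1 to 8 per line. A101D is described by the submitters as methionine dependent and MeWo as methionine independent, the latter meaning a line that is rescued when homocysteine takes the place of methionine. Per the growth protocol, a control medium held 200 µM methionine and a second, methionine-free medium held 200 µM homocysteine, while 150 µM cystine and 5% dialyzed serum were in both. No label says which culture had which medium, and none says whether libraries of a line came from separate cultures, so p-values measure the spread between libraries, which may be technical. Values are given for 4 groups of 4 libraries: A101D replicates 1 to 4, A101D replicates 5 to 8, MeWo replicates 1 to 4 and MeWo replicates 5 to 8. What separates the low from the high replicate numbers (medium, day, batch or nothing planned) cannot be told apart from the labels, and no medium is assigned to either here. Each line is 1 cell line, so a difference between lines is one between these 2 lines and not between the classes they stand for.

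Cholesterol is built from acetyl-CoA through mevalonate, the isoprenoids, squalene and lanosterol, and fatty acids are built from the same acetyl-CoA through malonyl-CoA. Both arms are under the sterol regulatory element binding proteins, SREBP-2 from the gene SREBF2, which acts mainly on the sterol genes, and SREBP-1 from SREBF1, which acts mainly on the fatty acid genes. These membrane-bound factors are escorted by SCAP from the endoplasmic reticulum to the Golgi, where they are cut and released, and INSIG proteins hold SCAP back when sterols are plentiful.

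Levels are in CPM, a gene's count divided by its library's size and multiplied by 1e6, with sizes scaled by the trimmed mean of M-values (TMM). Libraries held 28910881 to 38961862 counts. Among 8 melanocytic markers, 7 reached 1 CPM in A101D replicates 1 to 4 and 8 in the other groups, with TYR at 1.42 CPM in A101D replicates 1 to 4 against 308 in MeWo replicates 1 to 4. Summed levels of adipocyte and leukocyte markers stayed under 3 CPM in every library and those of keratinocytes too, with KRT1 at 0 in A101D. For 3 endothelial markers the summed CPM lay between 3.81 and 4.86 in A101D replicates 1 to 4, and between 14.9 and 19.4 in A101D replicates 5 to 8, mostly from VWF (3.80 and 15.6 CPM). PECAM1 and CDH5, the other markers of that list, made up the small remainder. Mitochondrially encoded genes took 1.71 to 1.92% of counts in A101D replicates 1 to 4. In A101D replicates 5 to 8 they took 1.93 to 2.33%, and in MeWo 1.28 to 1.45%. In MeWo replicate 2 a count was present for 34471 genes, while the remaining MeWo libraries had 30066 to 31433 such genes. The part of these quantities in the results below was not tested. In bulk RNA, fewer cells that express a gene and less RNA of it per cell cannot be told apart.

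Both arms stood lower in A101D replicates 5 to 8 than in A101D replicates 1 to 4, and in MeWo the same genes differed less. Of the 32 genes, 27 were lower in A101D replicates 5 to 8 at an adjusted p below 0.05, 3 were higher (SC5D, SCAP and SREBF1) and 2 were not called (INSIG2 and ACSS2). Among all genes tested, 35.8% were called lower and 29.6% higher in this comparison. The median log2 difference of the 32 genes was -0.84, which is a level 44.2% lower, against -0.05 for all genes tested. In MeWo, 22 of the 32 genes were lower in replicates 5 to 8, 0 were higher and 10 were not called, against 8.51% called lower and 4.59% called higher among all genes. The count of 0 higher in MeWo is by limma-voom and was 0 by limma-trend too, with 1 gene (SREBF1) higher at an unadjusted p below 0.05. The median log2 difference in MeWo was -0.21, a level 13.3% lower, against -0.02 for all genes tested. With library totals alone as the scale, 17 genes were lower and 1 higher in MeWo. With upper-quartile factors over tested genes, these counts were 19 and 1. Of all MeWo calls, 66.3% and 54.8% were then higher, against 35.0% with TMM. Tests are limma-voom fits across all genes with Benjamini-Hochberg adjustment over all genes tested, log2 differences carry a standard error (SE), and levels carry a standard deviation (SD) over 4 libraries.

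**Figure D1:**
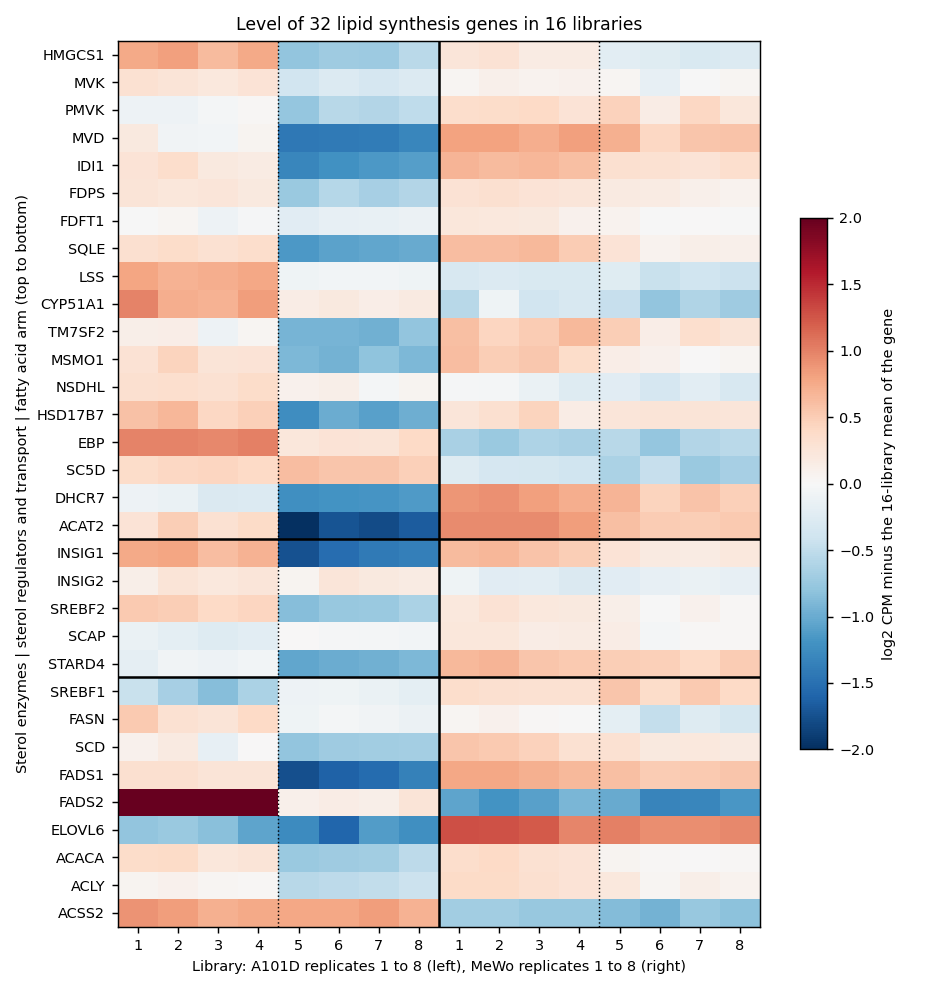
Each row is 1 of the 32 genes and each column 1 of the 16 libraries, and colour gives the log2 CPM of that library minus the gene's mean over all 16, on a scale that ends at -2 and 2. Most rows turn from red to blue between A101D replicates 1 to 4 and 5 to 8, while SREBF1, SCAP and SC5D go the other way and INSIG2 and ACSS2 hardly shift. FADS2 lies beyond the upper end of the scale in A101D replicates 1 to 4.

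The summary of the sterol arm, its mean deviation of log2 CPM from each gene's 16-library mean, lay between 0.26 and 0.35 in A101D replicates 1 to 4, and between -0.68 and -0.55 in replicates 5 to 8. In MeWo it was 0.20 to 0.29 and -0.01 to 0.12. The fatty acid arm gave 0.19 to 0.35 and -0.49 to -0.40 in A101D, and 0.12 to 0.22 and -0.08 to 0.07 in MeWo. In neither line did the libraries of the lower and the higher replicate numbers overlap on these summaries. The 32 genes together took 0.269 to 0.294% of all counts in A101D replicates 1 to 4, a share that was 0.194 to 0.200% in A101D replicates 5 to 8. Their share in MeWo was 0.301 to 0.302% and 0.260 to 0.276%.

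SREBF2 encodes the precursor of SREBP-2. Its level in A101D was 155, 152, 142 and 145 CPM in replicates 1 to 4 and 59.9, 63.5, 64.1 and 69.2 CPM in replicates 5 to 8. In MeWo it was at 125, 132, 125 and 123 CPM and then 117, 107, 114 and 109 CPM. All libraries of replicates 5 to 8 lay below those of replicates 1 to 4 in both lines, with a wide gap in A101D and a narrow one in MeWo. SREBF2 was 2.32-fold lower in A101D replicates 5 to 8 (log2 difference -1.21 ± 0.04 SE, adjusted p = 3.86e-27) and 1.13-fold lower in MeWo (-0.17 ± 0.04, adjusted p = 0.00280).

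INSIG1 encodes the endoplasmic reticulum protein that retains SCAP, and it is itself a target gene of SREBP. Its level was 115, 117, 103 and 109.6 CPM in A101D replicates 1 to 4 and 20.2, 23.5, 25.3 and 26.3 CPM in replicates 5 to 8. MeWo held 105, 107, 100.4 and 95.3 CPM and then 81.9, 76.6, 75.6 and 78.2 CPM. The A101D libraries numbered 5 to 8 were the lowest of all 16, and those of MeWo did not overlap with MeWo replicates 1 to 4. The A101D difference of -2.22 ± 0.06 on the log2 scale, 4.67-fold lower, was the largest among the 32 genes (adjusted p = 2.81e-31). In MeWo the difference was -0.38 ± 0.05 (adjusted p = 4.57e-07).

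INSIG2, the second INSIG gene, showed no such difference that passed the test. Its levels in A101D were 19.2, 21.1, 20.4 and 20.8 CPM and then 18.4, 20.9, 20.2 and 19.8 CPM. The MeWo libraries held 16.5, 15, 15.2 and 14.5 CPM and then 15.1, 15.8, 16.2 and 15.8 CPM. The libraries overlapped in both lines, and neither difference passed the test (-0.04 ± 0.06, adjusted p = 0.582 in A101D, and 0.04 ± 0.06, adjusted p = 0.755 in MeWo). With library totals alone as the scale, the A101D estimate became 0.12 and was called higher. Per kilobase of exon (RPKM, computed here from CPM and exon length), INSIG1 stood at 30.4 and INSIG2 at 5.16 in A101D replicates 1 to 4, and at 6.53 and 5.01 in replicates 5 to 8.

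The sequences before the starts of SREBF2, INSIG1, INSIG2 and, from the fatty acid arm, FADS1 are printed. SREBF2 was taken because its window held a sterol regulatory element match. INSIG1 and FADS1 had the largest A101D difference of their arm among genes with 1 window. INSIG2 is the INSIG gene that was not called. A window of MVK, taken for its 5 CCAAT matches, is not printed. The printed sequences are the 250 bases upstream of a RefSeq start (GRCh38.p14), written 5′ to 3′ on the gene's strand. Capitals mark matches on either strand to a sterol regulatory element of 10 letters with 1 of them free, to CCAAT (the core bound by NF-Y), to GGGCGG (the core bound by Sp1) and to the E-box CACGTG, and neighbouring matches can overlap. SREBF2 lies on the plus strand of chromosome 22, INSIG1 on that of chromosome 7, INSIG2 (the second of its windows) on that of chromosome 2 and FADS1 on the minus strand of chromosome 11.
SREBF2, chr22:41832855-41833104: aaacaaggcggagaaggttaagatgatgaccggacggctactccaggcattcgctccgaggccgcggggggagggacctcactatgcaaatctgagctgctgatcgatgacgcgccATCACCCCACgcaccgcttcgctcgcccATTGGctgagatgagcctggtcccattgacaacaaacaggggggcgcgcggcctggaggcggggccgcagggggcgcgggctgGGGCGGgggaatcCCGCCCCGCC
INSIG1, chr7:155297628-155297877: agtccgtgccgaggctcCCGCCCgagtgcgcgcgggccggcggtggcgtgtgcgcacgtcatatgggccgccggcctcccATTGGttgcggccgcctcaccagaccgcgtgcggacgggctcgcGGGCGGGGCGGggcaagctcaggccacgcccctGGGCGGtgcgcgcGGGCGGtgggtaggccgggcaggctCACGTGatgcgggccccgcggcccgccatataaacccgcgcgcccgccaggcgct
INSIG2, chr2:118088300-118088549: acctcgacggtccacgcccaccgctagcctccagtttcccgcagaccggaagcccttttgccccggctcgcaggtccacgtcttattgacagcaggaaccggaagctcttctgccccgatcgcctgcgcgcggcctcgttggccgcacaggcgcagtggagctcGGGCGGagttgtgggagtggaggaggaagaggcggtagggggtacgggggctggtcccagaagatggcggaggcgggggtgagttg
FADS1, chr11:61817004-61817253: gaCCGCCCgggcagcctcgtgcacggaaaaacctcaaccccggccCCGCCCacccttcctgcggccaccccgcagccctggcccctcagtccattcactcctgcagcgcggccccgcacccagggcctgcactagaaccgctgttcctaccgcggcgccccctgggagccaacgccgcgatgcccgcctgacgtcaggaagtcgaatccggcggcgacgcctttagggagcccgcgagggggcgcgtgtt

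In the SREBF2 window the sterol regulatory element begins at position -134 from the start and a CCAAT match on the minus strand at -106. The INSIG1 window holds a CCAAT match at -170 and an E-box at -55. The FADS1 and INSIG2 windows hold GGGCGG matches and none of the other motifs. A match is a run of letters in this window and not a measured binding site.

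RefSeq windows of 300 bases (250 before and 50 from the start) were matched for 28 of the 32 genes, with 39 windows in all, because several genes have more than 1 start and such windows can overlap. The sterol regulatory element was found in 1 of the 39 windows (2.56%), that of SREBF2, against 0.154% of 35116 windows of all genes. CCAAT was found in 25 (64.1%) against 34.6%, GGGCGG in 35 (89.7%) against 45.0%, and CACGTG in 5 (12.8%) against 7.26%. The windows of all genes were not matched to those of the 32 genes in expression or base composition. The 21 genes with a CCAAT match had a median log2 difference of -0.95 in A101D and the 7 without one -0.44. In MeWo these medians were -0.23 and -0.15. The 7 without CCAAT were PMVK, CYP51A1, INSIG2, SCAP, SREBF1, FADS1 and ELOVL6, so genes with both large and small differences were among them. The split by CACGTG ran the other way in A101D, with -0.33 for the 4 genes with a match and -0.87 for the 24 without. In MeWo the CACGTG medians were -0.22 and -0.18. Whether a match bears on the differences was not tested. No windows were matched for FDFT1, SQLE, ACAT2 and FASN.

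SCAP, the escort of the SREBP precursors, was at 95.6, 91.4, 88.1 and 90.5 CPM in A101D replicates 1 to 4 and at 106, 103, 102 and 101.1 CPM in replicates 5 to 8. Levels in MeWo were 123, 122, 116 and 117 CPM and then 117, 102, 107 and 106 CPM. A101D libraries 5 to 8 were all above libraries 1 to 4, while the MeWo libraries overlapped and were lower on average. The log2 differences were 0.17 ± 0.04 in A101D (adjusted p = 0.000321) and -0.15 ± 0.04 in MeWo (adjusted p = 0.00930), so SCAP was called in opposite directions.

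STARD4 carries cholesterol between membranes. Its levels in A101D were 37, 40.02, 39.2 and 40.1 CPM and then 20.4, 21, 21.4 and 22.4 CPM. MeWo had 65.7, 67.1, 61.6 and 60.3 CPM in replicates 1 to 4 and 58.9, 57.9, 55.4 and 59.2 CPM in replicates 5 to 8. STARD4 was 1.83-fold lower in A101D replicates 5 to 8 (-0.87 ± 0.05, adjusted p = 3.47e-19), and -0.14 ± 0.04 lower on the log2 scale in MeWo (adjusted p = 0.0268), without overlap in either.

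SREBF1, the regulator of the fatty acid arm, differed in the other direction from SREBF2 in A101D. A101D held 63.8, 54.9, 48.2 and 56.2 CPM in replicates 1 to 4 and 80.9, 82.4, 79.6 and 76.2 CPM in replicates 5 to 8. MeWo held 112, 109, 107 and 107 CPM and then 128, 113, 125 and 114 CPM. In both lines every library numbered 5 to 8 was above every library numbered 1 to 4. SREBF1 was 1.43-fold higher in A101D (0.52 ± 0.05, adjusted p = 1.26e-10), and its MeWo difference did not pass the test (0.14 ± 0.05, adjusted p = 0.0646). Leaving out A101D replicate 1, A101D replicate 3 or MeWo replicate 6 put the MeWo difference past the threshold (adjusted p = 0.0293, 0.0305 and 0.0370).

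**Figure D2:**
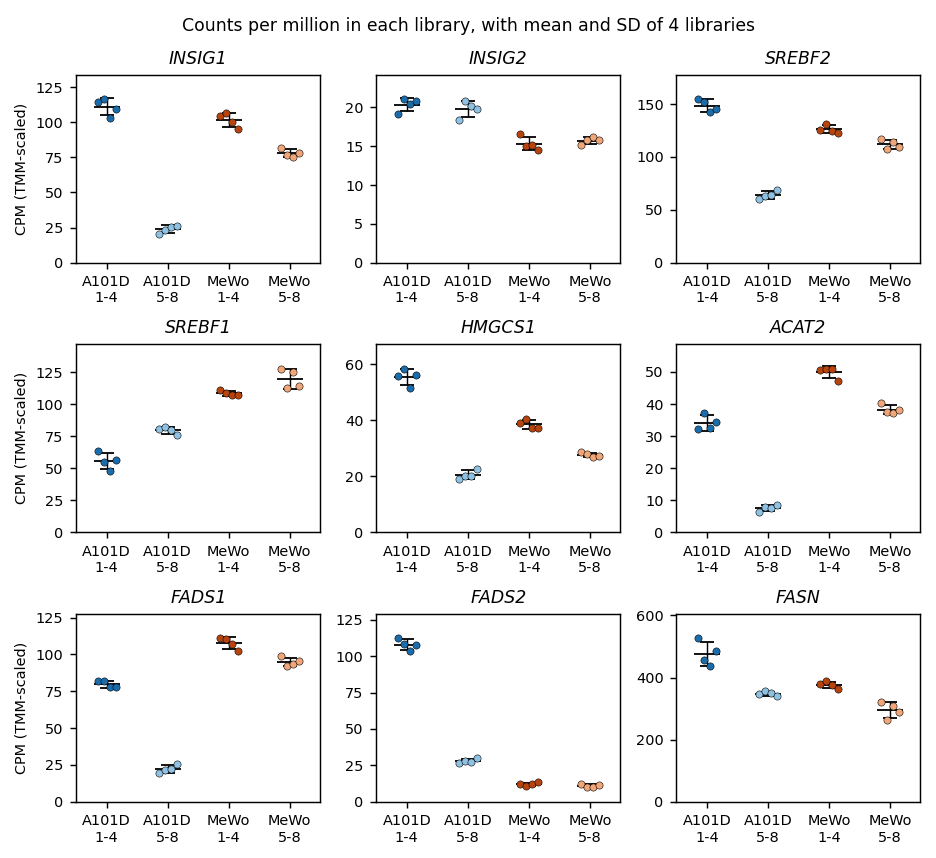
Each panel shows 1 gene, with CPM on the vertical axis from 0, a point for each library and the mean with SD of the 4 libraries of a group. INSIG1, SREBF2, HMGCS1, ACAT2, FADS1 and FADS2 have their A101D replicates 5 to 8 far below replicates 1 to 4, the INSIG2 libraries overlap, and SREBF1 is higher in replicates 5 to 8.

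Among the 18 sterol enzymes, 17 were lower in A101D replicates 5 to 8 and SC5D was higher, with a median log2 difference of -0.91. In MeWo 12 of the 18 were lower and 6 were not called (MVK, PMVK, LSS, TM7SF2, HSD17B7 and EBP), with a median of -0.24. The share of genes called lower among all genes is that given above.

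At the entry of the pathway, ACAT2, the cytosolic thiolase that joins 2 acetyl-CoA units, was at 32, 37.2, 32.5 and 34.5 CPM in A101D replicates 1 to 4 and 6.31, 7.99, 7.67 and 8.38 CPM in replicates 5 to 8. MeWo held 50.7, 51.1, 50.8 and 47 CPM and then 40.2, 37.6, 37.1 and 38 CPM. A101D libraries 5 to 8 were the lowest of the 16. ACAT2 was 4.48-fold lower in A101D (-2.16 ± 0.07, adjusted p = 1.38e-27) and 1.30-fold lower in MeWo (-0.38 ± 0.05, adjusted p = 4.52e-07). Of its exon bases, 52.3% overlap genes on the other strand, TCP1 among them, and the strand setting of the counting is not stated, so reads of the 2 strands may be mixed in its count.

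HMGCS1, the synthase that makes HMG-CoA, was at 55.9, 58.4, 51.4 and 55.9 CPM and then 19, 20.1, 19.9 and 22.7 CPM in A101D. For MeWo the values were 39.1, 40.5, 37.1 and 37.2 CPM and then 28.5, 27.9, 26.7 and 27.3 CPM. No libraries overlapped between the lower and the higher replicate numbers in either line. HMGCS1 was 2.71-fold lower in A101D replicates 5 to 8 (-1.44 ± 0.05, adjusted p = 1.71e-26), and its MeWo difference of -0.48 ± 0.05 (adjusted p = 9.24e-09) was the largest in that line among the 32 genes.

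The mevalonate steps follow. MVK and PMVK, the kinases of mevalonate and of phosphomevalonate, were at 40.9 ± 1.13 and 17.4 ± 0.771 CPM (SD, n = 4) in A101D replicates 1 to 4 and at 27.3 ± 0.965 and 11.9 ± 0.938 CPM in replicates 5 to 8. Both were lower there (-0.58 and -0.55), while neither passed the test in MeWo (-0.10 and -0.04). MVD, the decarboxylase that makes isopentenyl diphosphate, was at 29.2, 24.1, 24.5 and 26.4 CPM and then 9.46, 9.54, 9.62 and 10.3 CPM in A101D. Its MeWo levels were 44.2, 44.5, 42.2 and 44.7 CPM, against 41.6, 33.8, 37.2 and 37.8 CPM in replicates 5 to 8. MVD did not overlap between replicate numbers in either line and was 2.68-fold lower in A101D (-1.42 ± 0.07, adjusted p = 2.54e-21) and 1.17-fold lower in MeWo (-0.23 ± 0.05, adjusted p = 0.00196).

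IDI1, which converts isopentenyl diphosphate to its isomer, was at 63.8, 67.5, 60.4 and 59.5 CPM in A101D replicates 1 to 4 and 21.4, 22.9, 24 and 24.6 CPM in replicates 5 to 8. MeWo held 84.7, 82, 83.8 and 80.1 CPM and then 65.9, 65.3, 63.8 and 67.2 CPM. The difference was -1.43 ± 0.05 in A101D (adjusted p = 2.56e-27) and -0.33 ± 0.04 in MeWo (adjusted p = 3.54e-07), without overlap. FDPS, the farnesyl diphosphate synthase, was at 79.9 ± 1.12 CPM and then 43.8 ± 2.38 CPM in A101D, a log2 difference of -0.87, and differed by -0.15 in MeWo. Exons of IDI1, FDPS and HMGCS1 overlap genes on the other strand over 14.8, 18.6 and 15% of their bases.

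FDFT1 and SQLE make squalene and its epoxide. FDFT1 had the smallest A101D difference among the sterol arm genes called lower, 139 ± 5.33 CPM in replicates 1 to 4 and 126 ± 3.82 CPM in replicates 5 to 8 (-0.15 ± 0.04, adjusted p = 0.00115). That call was lost without A101D replicate 2 (-0.09, adjusted p = 0.0915), and with total counts as the scale its sign turned (0.01). SQLE was at 65.3, 67.2, 64.2 and 66.7 CPM and then 23.5, 24.8, 25.3 and 25.9 CPM in A101D. In MeWo it was at 80.5, 80.1, 81.6 and 74 CPM and then 62.8, 54.8, 56.4 and 56.3 CPM. SQLE was 2.65-fold lower in A101D (-1.40 ± 0.05, adjusted p = 3.73e-27) and 1.38-fold lower in MeWo (-0.46 ± 0.04, adjusted p = 4.15e-10), with no overlap in either line.

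LSS closes squalene epoxide to lanosterol. In A101D it was at 138, 129.6, 132 and 137 CPM and then 75.4, 77.3, 77.1 and 75.3 CPM, without overlap. The MeWo libraries held 64.3, 66.1, 64.5 and 64.5 CPM and then 67.9, 58.6, 60.9 and 59.3 CPM, with replicate 5 above all 4 libraries of the lower numbers. LSS was 1.76-fold lower in A101D (-0.81 ± 0.04, adjusted p = 8.70e-22), and its MeWo difference did not pass the test (-0.08 ± 0.04, adjusted p = 0.266) unless replicate 5 was left out (adjusted p = 0.0477).

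Beyond lanosterol, CYP51A1 (the lanosterol demethylase), TM7SF2 (a sterol reductase), MSMO1 and NSDHL (which remove methyl groups), HSD17B7 (a ketosteroid reductase) and EBP (a sterol isomerase) were all lower in A101D replicates 5 to 8. HSD17B7 had the largest difference of these, with 15.9, 16.7, 14 and 14.8 CPM and then 4.48, 5.34, 4.98 and 5.36 CPM. Levels in MeWo were 12.5, 13.3, 14.3 and 11.7 CPM and then 12.5, 12.6, 12.7 and 12.5 CPM, with overlap. HSD17B7 was 3.04-fold lower in A101D (-1.60 ± 0.09, adjusted p = 9.63e-21) and differed by -0.03 ± 0.07 in MeWo (adjusted p = 0.818). HSD17B7 has a pseudogene copy, so its count is uncertain where reads fit both.

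MSMO1 was at 44.4, 49.6, 43.4 and 44 CPM and then 19.5, 18.8, 20.8 and 19.4 CPM in A101D. MeWo had 55.5, 51.2, 52.9 and 46.6 CPM in replicates 1 to 4 and 40.00, 38.7, 36.4 and 37.4 CPM in replicates 5 to 8. Both lines were lower without overlap, by -1.21 ± 0.06 in A101D and -0.43 ± 0.05 in MeWo (adjusted p = 1.33e-22 and 5.43e-08). The A101D differences of the others were -0.95 for TM7SF2, -0.70 for EBP, -0.66 for CYP51A1 and -0.27 for NSDHL. CYP51A1 and NSDHL were also called lower in MeWo (-0.31 and -0.16). Reads of CYP51A1 are uncertain, since 79.4% of its exon bases are shared with other annotated genes on the same strand.

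At the last steps SC5D and DHCR7 went apart. DHCR7, the reductase that yields cholesterol, was at 70.5, 69.2, 62.1 and 62.7 CPM and then 32.3, 33, 33.2 and 34.5 CPM in A101D. For MeWo the values were 140.0, 142, 133 and 125 CPM and then 121, 103, 112 and 106 CPM. DHCR7 was 1.99-fold lower in A101D (-0.99 ± 0.05, adjusted p = 4.23e-20) and 1.22-fold lower in MeWo (-0.29 ± 0.05, adjusted p = 1.81e-05), without overlap. SC5D, the desaturase of the step before, was at 48.2 ± 0.784 CPM (SD, n = 4) in A101D replicates 1 to 4 and 53.3 ± 2.24 CPM in replicates 5 to 8, which was higher (0.15 ± 0.05, adjusted p = 0.00524). In MeWo SC5D was lower, at 28.9 ± 1.14 and then 23.7 ± 1.92 CPM (-0.29 ± 0.05, adjusted p = 0.000184). With upper-quartile factors over every gene with a count, the A101D call of SC5D was lost (adjusted p = 0.0699).

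In the fatty acid arm, 7 of the 8 enzymes were lower in A101D replicates 5 to 8 and ACSS2 was not called, with a median log2 difference of -0.65. In MeWo 6 of the 8 were lower and 2 were not called (FADS2 and ACSS2), with a median of -0.23. Among all genes tested, 35.8% were called lower in A101D and 8.51% in MeWo.

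ACLY and ACSS2 supply cytosolic acetyl-CoA, from citrate and from acetate. ACLY was at 423, 429, 418 and 413 CPM and then 277, 282, 289.7 and 301 CPM in A101D. Its MeWo levels were 527, 528, 509 and 490.0 CPM, against 469, 416, 438 and 426 CPM in replicates 5 to 8. ACLY was lower without overlap in both lines, by -0.55 ± 0.04 in A101D (adjusted p = 2.89e-17) and -0.23 ± 0.04 in MeWo (adjusted p = 1.04e-05). ACSS2 was at 59.9, 56.9, 52.3 and 54.2 CPM and then 54.7, 54.9, 56.9 and 52 CPM in A101D, with overlap. In MeWo it was at 19.8, 19.6, 18.9 and 18.8 CPM and then 17.54, 16.5, 18.9 and 18 CPM, with overlap as well. Neither ACSS2 difference passed the test (-0.03 ± 0.04, adjusted p = 0.542, and -0.12 ± 0.06, adjusted p = 0.200). With total counts as the scale, the A101D estimate of ACSS2 was 0.13 and called higher.

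ACACA makes malonyl-CoA, the committed step. It was at 111, 112, 100.6 and 103 CPM and then 51.5, 52.8, 53.3 and 60.01 CPM in A101D. The MeWo libraries held 109.5, 114, 107 and 104 CPM and then 89.3, 87.9, 86.1 and 87.2 CPM. ACACA was 1.96-fold lower in A101D (-0.97 ± 0.05, adjusted p = 9.61e-23) and 1.24-fold lower in MeWo (-0.31 ± 0.04, adjusted p = 2.21e-06), without overlap.

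FASN, the synthase that builds palmitate, was at 527, 457, 438 and 485 CPM and then 347, 356, 349 and 339.5 CPM in A101D. Levels in MeWo were 378, 389, 375 and 364 CPM and then 321, 263, 308 and 289 CPM. FASN was lower in both lines without overlap, -0.45 ± 0.05 in A101D and -0.36 ± 0.05 in MeWo (adjusted p = 1.58e-09 and 1.04e-05). ELOVL6, which lengthens palmitate, was at 9.13, 9.50, 8.90 and 7.66 CPM and then 6.67, 5.31, 7.33 and 6.77 CPM in A101D. MeWo had 38.9, 38.3, 37 and 31.1 CPM in replicates 1 to 4 and 32, 30.1, 30.3 and 31 CPM in replicates 5 to 8, with overlap only through replicate 4. Its differences were -0.44 ± 0.10 in A101D (adjusted p = 0.000216) and -0.23 ± 0.06 in MeWo (adjusted p = 0.00596).

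SCD, FADS1 and FADS2 put double bonds into fatty acids, SCD into saturated chains and FADS1 and FADS2 into polyunsaturated ones. SCD was at 338, 362, 285 and 319.5 CPM and then 185, 195, 198 and 198 CPM in A101D. For MeWo the values were 466, 459.6, 439 and 394 CPM and then 394, 366, 369 and 361 CPM. SCD was 1.68-fold lower in A101D (-0.75 ± 0.06, adjusted p = 6.68e-11), and 1.18-fold lower in MeWo (-0.24 ± 0.06, adjusted p = 0.00559). No libraries overlapped, though MeWo replicates 4 and 5 were nearly level.

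FADS1 was at 81.8, 81.7, 77.6 and 77.9 CPM and then 19.3, 21.2, 22.53 and 25.6 CPM in A101D. Its MeWo levels were 111, 111, 107 and 102 CPM, against 98.7, 92.3, 93.6 and 95.3 CPM in replicates 5 to 8. FADS1 was 3.61-fold lower in A101D (-1.85 ± 0.05, adjusted p = 6.11e-30) and 1.14-fold lower in MeWo (-0.18 ± 0.04, adjusted p = 0.00410), with no overlap in either. FADS2 was at 112, 109, 103 and 108 CPM and then 26.8, 27.7, 27.1 and 30.1 CPM in A101D. In MeWo it was at 12, 10.9, 11.8 and 13.3 CPM and then 12.4, 10.02, 10.2 and 11.2 CPM, with overlap. FADS2 was 3.87-fold lower in A101D (-1.95 ± 0.05, adjusted p = 1.55e-32) and did not pass the test in MeWo (-0.14 ± 0.08, adjusted p = 0.241). On chromosome 11 all 29694 bases of the annotated FADS1 span lie within that of FADS2, on the other strand. Overlap on the other strand covers 4.79% of FADS1 exon bases and 4.44% of those of FADS2. The strand setting of the counting is not stated, so reads of the 2 strands may be mixed there.

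Per kilobase of exon, the highest of the 32 genes in A101D replicates 1 to 4 were ACLY at 80.7 RPKM, SCD at 60.8 and FASN at 50.9, and the lowest were TM7SF2 at 1.254 and ELOVL6 at 1.21. In A101D replicates 5 to 8 ACLY stood at 55.1, FASN at 37.2 ± 0.741 and SCD at 36.2 ± 1.14 RPKM (SD, n = 4), the latter pair within their SDs of each other. INSIG1, next after FASN in replicates 1 to 4 with 30.4 RPKM, stood at 6.53 in replicates 5 to 8.

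**Figure D3:**
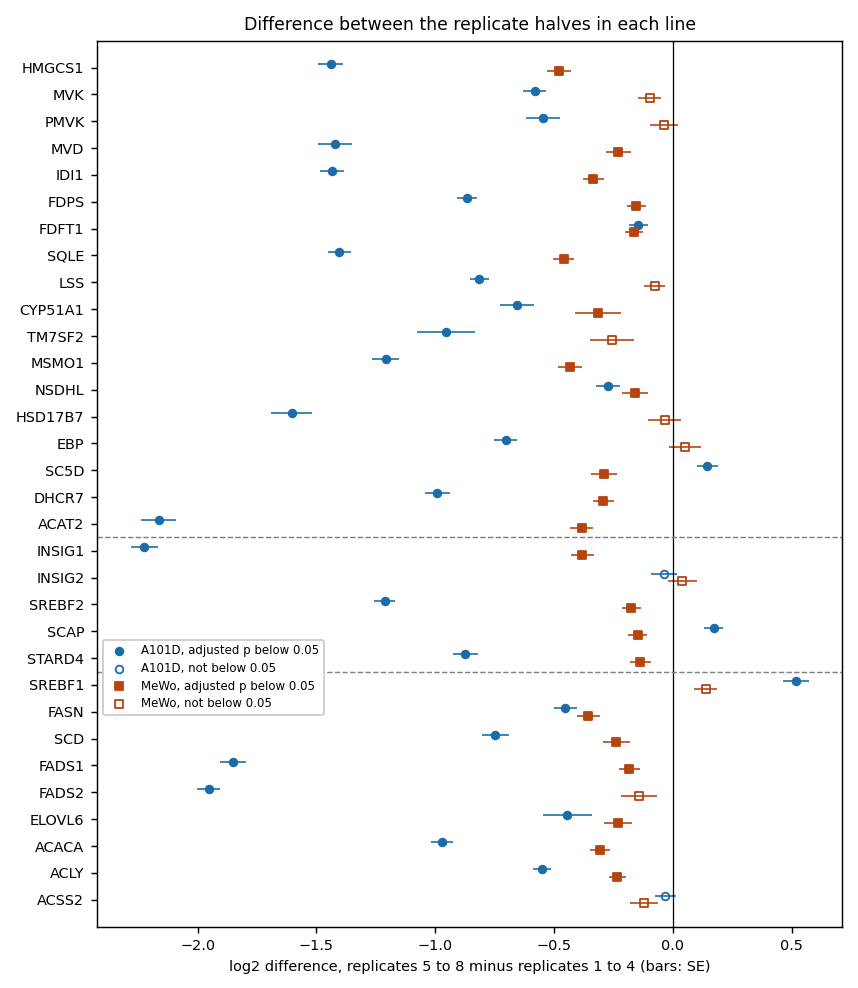
For each gene the log2 difference of replicates 5 to 8 minus replicates 1 to 4 is drawn for A101D (circles) and MeWo (squares), with bars for the SE, filled where the adjusted p is below 0.05. The A101D values run from -2.22 for INSIG1 to 0.52 for SREBF1, and the MeWo values from -0.48 for HMGCS1 to 0.14 for SREBF1.

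The difference between the lines was tested as an interaction, the MeWo difference minus the A101D difference. It passed for 26 of the 32 genes, against 48.5% of all genes tested. For 23 genes it was positive, against 27.6% of all genes, which here means a less negative value in MeWo, and for 3 it was negative, against 20.8%. The largest values were INSIG1 at 1.84 ± 0.07 (adjusted p = 1.23e-23), FADS2 at 1.81 ± 0.09 (adjusted p = 3.48e-21), ACAT2 at 1.78 ± 0.09 (adjusted p = 4.44e-21), FADS1 at 1.67 ± 0.07 (adjusted p = 1.12e-23) and HSD17B7 at 1.57 ± 0.11 (adjusted p = 3.79e-16). ACACA, next in the fatty acid arm, had 0.66 ± 0.06. SC5D, SREBF1 and SCAP had the negative values, -0.44, -0.38 and -0.32. The interaction did not pass for FDFT1, NSDHL, INSIG2, FASN, ELOVL6 and ACSS2.

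FASN and FDFT1 were lower in both lines, and their interactions were 0.10 ± 0.07 (adjusted p = 0.262) and -0.02 ± 0.05 (adjusted p = 0.830), which does not show that the lines acted alike. Without MeWo replicate 6 the interaction of FASN passed (adjusted p = 0.0371). That of CYP51A1, 0.34 ± 0.12 (adjusted p = 0.0177), was lost without A101D replicate 1, MeWo replicate 1, MeWo replicate 3 or MeWo replicate 5 (adjusted p = 0.0551, 0.130, 0.0615 and 0.0585).

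Of the 32 genes, 20 were called lower in both lines, against 6.37% of all genes tested. Another 7 (EBP, FADS2, HSD17B7, LSS, MVK, PMVK and TM7SF2) were called lower in A101D and not called in MeWo, against 28.6% of all genes, and 2 (SC5D and SCAP) were called in opposite directions, against 1.66%. Over the 20, the A101D difference was 0.898 times (FDFT1) to 10.1 times (FADS1) the MeWo difference on the log2 scale, with a median of 3.15. Across the 32 genes, the A101D and MeWo differences, which share no libraries, had a Pearson correlation of 0.479 and a Spearman correlation of 0.437. This is a description over genes of 1 pathway, which are not independent and were chosen with earlier results of these data known. In A101D, 27 genes had all libraries 5 to 8 below all libraries 1 to 4, against 32.9% of all genes, and in MeWo 18 did, against 8.11%.

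Several MeWo calls rested on single libraries. Leaving out MeWo replicates 1 to 8 in turn gave 18, 17, 20, 22, 24, 18, 21 and 20 members called lower instead of 22. All genes called in MeWo numbered 2825, and 1743, 1716 and 1882 without MeWo replicates 1, 2 and 3. Called members that lost the call without 1 library were NSDHL (adjusted p up to 0.217, without A101D replicate 2 or MeWo replicate 1, 2, 3, 6 or 8), STARD4 (up to 0.1800, without MeWo replicate 1, 2, 3, 6 or 7) and CYP51A1 (up to 0.157, without MeWo replicate 2, 6 or 8). SCAP lost it without MeWo replicate 1, 2 or 6 (up to 0.0711), FDPS without replicate 2 (0.0601) and ELOVL6 without replicate 1 (0.0509). TM7SF2 gained it without replicate 5 (0.0301). Scaling moved all genes together. With total counts as the scale, the median A101D difference of all genes shifted by 0.16, 59.5% of the A101D calls were higher instead of 45.2%, and 66.3% of the MeWo calls instead of 35.0%. The sterol arm then had a median of -0.71 in A101D and -0.12 in MeWo, and the fatty acid arm -0.39 and -0.18.

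Between the lines, taken over both replicate ranges with equal weight, 21 of the 32 genes were higher in MeWo and 9 lower, against 41.1% higher and 45.6% lower among all genes. HMGCS1 and MVK were not called. The median log2 difference (MeWo minus A101D) was 0.43, against -0.05 for all genes. All 8 MeWo libraries were above all 8 A101D libraries for 7 genes and below for 7, against 24.3% and 30.2% of all genes.

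The largest line differences were in the fatty acid arm. FADS2 was at 68 ± 42.9 CPM (SD, n = 8) in A101D, an SD that includes the gap between its replicate ranges, and 11.48 ± 1.12 CPM in MeWo. Averaged on the log2 scale over both replicate ranges, FADS2 was 4.801-fold lower in MeWo (-2.26 ± 0.04, adjusted p = 1.45e-37). It was 8.99-fold lower in replicates 1 to 4 and 2.56-fold lower in replicates 5 to 8. ELOVL6 was 4.43-fold higher in MeWo (2.15 ± 0.06, adjusted p = 5.51e-31) and ACSS2 2.98-fold lower (-1.58 ± 0.04, adjusted p = 1.26e-34). FADS1, which lies within the span of FADS2, went the other way and was 2.41-fold higher in MeWo (1.27 ± 0.04). In the sterol arm ACAT2 (1.44 ± 0.04), DHCR7 (1.38 ± 0.04) and MVD (1.35 ± 0.04) were higher in MeWo, and EBP (-1.28 ± 0.04) was lower. LSS, CYP51A1, NSDHL, SC5D, INSIG2 and FASN were also lower in MeWo, by -0.68, -0.99, -0.39, -0.96, -0.37 and -0.29.

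The line difference depended on which replicates were compared. In replicates 1 to 4, 16 genes were higher in MeWo and 14 lower (35.8% and 43.3% of all genes), with a median of 0.12. In replicates 5 to 8, 22 were higher and 9 lower (40.5% and 43.5% of all genes), with a median of 0.73. HMGCS1, HSD17B7, INSIG1, MVK and SREBF2 were lower in MeWo in replicates 1 to 4 and higher in replicates 5 to 8. INSIG1 differed by -0.13 ± 0.05 (adjusted p = 0.0152) and then 1.71 ± 0.06 (adjusted p = 6.82e-28), and SREBF2 by -0.24 ± 0.04 and then 0.80 ± 0.04. The former INSIG1 call was lost without A101D replicate 1 or 2 or MeWo replicate 1, 3 or 4 (adjusted p = 0.0522, 0.191, 0.0608, 0.112 and 0.0676). With upper-quartile factors over every gene with a count, which shifted the median line difference of all genes by 0.50, the values of INSIG1, SREBF2, HSD17B7 and MVK in replicates 1 to 4 and those of NSDHL, INSIG2 and FASN turned sign.

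Neighbouring lipid genes, listed by function, were counted in the same fits, and their counts stand against 35.8% of all genes called lower and 29.6% higher in A101D, and 8.51% lower and 4.59% higher in MeWo. In the isoprenoid branch, which leads from farnesyl diphosphate to ubiquinone, dolichol and protein prenylation, 8 of 12 were lower and 2 higher in A101D replicates 5 to 8, with a median of -0.20, and 2 lower and 0 higher in MeWo (0 higher at an unadjusted p below 0.05 and by limma-trend). RABGGTB, a subunit of the Rab prenylation enzyme (-0.98), and PDSS1, which builds the ubiquinone tail (-0.84), had the largest called decreases in A101D. GGPS1 (0.22) and DHDDS (0.20) were higher. With total counts as the scale, 5 were lower and 4 higher in A101D, where 59.5% of all calls were higher instead of 45.2%.

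Of 8 genes for SREBP processing and degradation, 5 were higher (29.6% of all genes) and 2 lower (35.8%) in A101D, with a median of 0.12, and 0 higher and 2 lower in MeWo (1 higher at an unadjusted p below 0.05, 0 by limma-trend). With upper-quartile factors over every gene with a count, 2 instead of 5 were higher in A101D, and with total counts 2 instead of 0 were higher in MeWo. Of all calls, 42% instead of 45.2% were then higher in A101D, and 66.3% instead of 35% in MeWo. RNF139, a ubiquitin ligase of the endoplasmic reticulum, was at 20.6 and then 37.2 CPM (0.85 ± 0.05), and SPRING1, which is needed for SREBP signalling, at 89.4 and then 156 CPM (0.80 ± 0.04). Of the list for sterol efflux, esterification and lysosomal release, 11 of 12 genes passed the filter, and 3 were higher and 3 lower in A101D, shares near those of all genes (29.6% and 35.8%). Its counts moved with the scale, to 7 higher and 2 lower with total counts and 6 higher and 3 lower with median-of-ratios factors. All genes moved too: 59.5% and 52.1% of all A101D calls were then higher, against 45.2% with TMM. ABCA1, the exporter of cholesterol, was higher in A101D (0.70) and in MeWo (0.24), while NCEH1, a cholesteryl ester hydrolase, was higher in A101D (1.03) and lower in MeWo (-0.23).

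Of 19 genes for fatty acid elongation and activation, 12 were lower and 4 higher in A101D, with a median of -0.34, and 6 lower and 1 higher in MeWo. All genes tested were called lower in 35.8% and higher in 29.6% of cases in A101D, and in 8.51% and 4.59% in MeWo, shares that hold for the next 2 lists too. SLC25A1, the mitochondrial citrate carrier (-1.22), and SCD5, a second stearoyl-CoA desaturase (-1.19), were the lowest called, and ACSL5 was higher (1.12). Genes of fatty acid oxidation, the opposite process, were lower as well, 15 of 16 in A101D with a median of -0.36 and 1 (ECI1, 0.33) higher. CPT1A, which admits fatty acids to mitochondria, was lower in A101D (-0.99) and MeWo (-0.30), and ACADS in A101D (-0.996). In MeWo 3 oxidation genes were lower and 2 higher, CPT2 (0.23) and ACADVL (0.19). Of 15 genes for glycerolipids and lipid droplets, 8 were lower and 2 higher in A101D, with a median of -0.16, and 4 lower and 1 higher in MeWo. PLIN2, which coats lipid droplets, was among the higher ones in A101D (0.60), and DGAT2, which makes triglycerides, among the lower (-0.65). With total counts as the scale, 10 instead of 15 oxidation genes and 5 instead of 8 glycerolipid genes were lower in A101D. Then 6 instead of 2 glycerolipid genes were higher, and the glycerolipid median was 0.004. Among all A101D calls 59.5% instead of 45.2% were higher on that scale, and the median of all genes was 0.11 instead of -0.05.

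**Figure D4:**
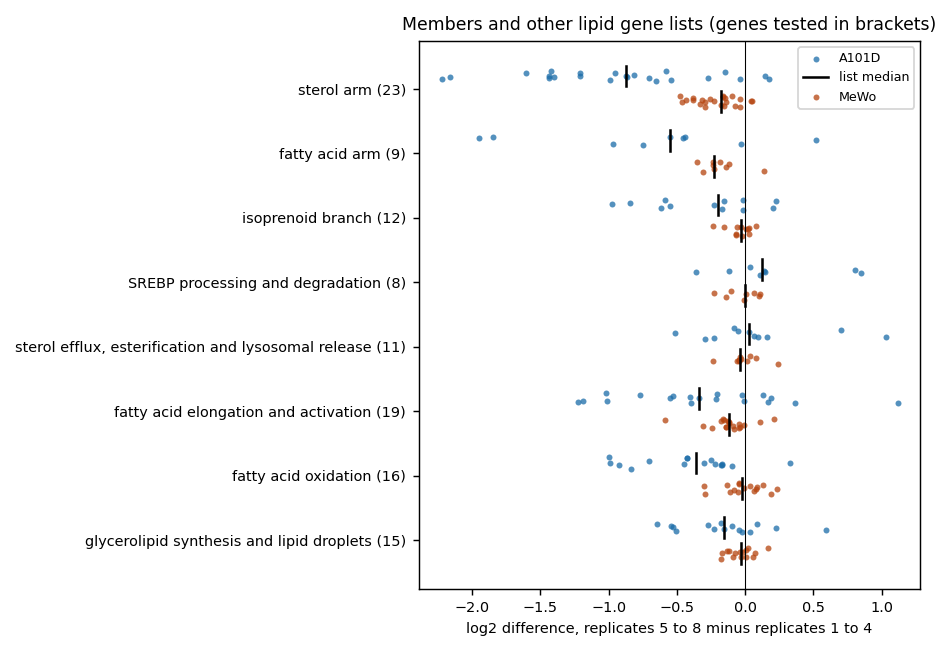
Each point is 1 gene at its log2 difference of replicates 5 to 8 minus replicates 1 to 4, for A101D and MeWo, in the sterol arm, the fatty acid arm and 6 further lipid lists, with a bar at the list median. In A101D the medians of the sterol arm (-0.87) and fatty acid arm (-0.55) lie left of those of the 6 lists, and in MeWo no median is below -0.23.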

How the data were processed

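The authors deposited 1 table per cell line with whole-number counts per gene, not normalized. Per the file headers they were counted over exons from sorted alignments, and each cell joins an Ensembl identifier and a count, which were separated here. The submitters' processing notes name Trimmomatic 0.39-1, STAR 2.7.1a, featureCounts 2.0.0 and GRCh38, with no roles. Neither the strand setting nor the annotation release is stated in these sources. The kit was a stranded one for total RNA, per the labels. Symbols were found for 60357 of 60676 identifiers, and positions and exon lengths are those of GENCODE v29, which holds 58503.

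Counts were scaled with TMM factors (trims of 30% and 5%). Genes reaching 0.298 CPM (10 counts at the median depth) in 4 or more libraries, with a total of 15 counts or more, were tested with limma 3.58.1 in R 4.3.3, as voom weights with robust empirical Bayes moderation, in 1 fit of 4 groups with 12 residual degrees of freedom. Adjusted p-values follow Benjamini and Hochberg over all tested genes, with a threshold of 0.05. Counting error is part of the spread between libraries, and the precision is that of 4 libraries a group. It weighs more in genes with few counts, such as TM7SF2 with 318 counts over all of A101D replicates 5 to 8. A quasi-likelihood or negative binomial count test was planned as an alternative and was not run, because the unit check refused the joined cells as counts. The fit was also run on simulated counts with known changes in a few genes of A101D replicates 5 to 8, equally many up and down. That run does not test the scaling where many genes differ. No pair of libraries was alike within counting noise, with a chi-square of at least 1.97 per degree of freedom.

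The members and gene lists were chosen with earlier results of these data known. Values in every library are given for 17 fixed members and for the 3 largest called changes of each arm in the comparisons of lines, of replicates within each line and of the 2 together. Genes of other lists are the 2 largest called changes per direction. Alternatives were other scale factors, other low-count filters, a threshold of 0.01, limma-trend, a replicate block and leaving out each library. A fit on 1 line alone and 1 kind of upper-quartile factor were added after seeing the data.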

Additional observations from a re-analysis of the deposited data

Results flagged for a closer look

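Among 136 sets of 4 libraries (32 members and 2 arm summaries in 4 groups), 4 held a library whose gap to the others exceeded Dixon's critical value for 4 samples, where chance gives about 1 in 20 (6.8). LSS was at 66.07 CPM in MeWo replicate 2 against 64.32 to 64.53 in the other libraries of its group. MSMO1 was at 49.65 CPM in A101D replicate 2 against 43.41 to 44.37. EBP was at 11.52 CPM in MeWo replicate 6 against 13.20 to 13.55. ACAT2 was at 47.03 CPM in MeWo replicate 4 against 50.71 to 51.05.

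For 26 members the difference between replicates 5 to 8 and 1 to 4 was not the same in the 2 lines, by the interaction term (MeWo minus A101D, log2, limma-voom with Benjamini-Hochberg adjustment). In the sterol arm the values were 0.96 for HMGCS1, 0.48 for MVK, 0.51 for PMVK, 1.19 for MVD, 1.10 for IDI1, 0.71 for FDPS, 0.94 for SQLE, 0.74 for LSS, 0.34 for CYP51A1, 0.70 for TM7SF2, 0.77 for MSMO1, 1.57 for HSD17B7 and 0.75 for EBP. They were 0.70 for DHCR7, 1.78 for ACAT2, 1.84 for INSIG1, 1.04 for SREBF2 and 0.74 for STARD4, with the negative values -0.44 for SC5D and -0.32 for SCAP. In the fatty acid arm they were 0.51 for SCD, 1.67 for FADS1, 1.81 for FADS2, 0.66 for ACACA, 0.32 for ACLY and -0.38 for SREBF1.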

How the results depend on the processing

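Of 4800 estimates of single members under alternative settings, 4673 kept their direction and side of the threshold, 59 lost the call, 24 gained it, 25 had no call and a changed sign, and 19 with a call changed sign. In each comparison 512 estimates came from leaving out 1 library. Within a line or a replicate range that library was often outside the comparison, so little change could follow. The MeWo replicate difference lost 19 calls and gained 5 with 1 library left out, and lost 18 and gained 5 under other settings.

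The sterol and fatty acid medians in A101D were -0.80 and -0.48 with median-of-ratios factors, -0.74 and -0.41 with upper-quartile factors over tested genes, and -0.71 and -0.39 with total counts. Their interactions were 0.66 and 0.24, 0.63 and 0.22, and 0.63 and 0.21. The MeWo sterol median was -0.12 with total counts. In replicates 1 to 4 the sterol median of the line difference was 0.10 with upper-quartile factors over tested genes, and in replicates 5 to 8 it was 0.75, or 0.74 with total counts, where the fatty acid median was 0.54. Members higher in A101D numbered 5 with total counts, members higher in MeWo 1 with upper-quartile factors over tested genes, total counts or a fit on 1 line, and members with a negative interaction 5 with the former pair. The share of higher calls among all genes called moved as well. In A101D it was 59.5% with total counts instead of 45.2%. In MeWo it was 54.8%, 66.3% and 36.8% in those settings instead of 35%. Among interaction calls it was 46.2% and 45.8% with the former pair instead of 57%. All genes called in MeWo numbered 1540 at a threshold of 0.01. ACSS2 in A101D was 0.10 with upper-quartile factors over tested genes, and with total counts FDFT1, INSIG2 and ACSS2 were 0.015, 0.12 and 0.13; the cause was not tested.

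Upper-quartile factors over every gene with a count, added after seeing the data, gave sterol and fatty acid medians of 0.90 and 0.94 for the line, 0.55 and 0.79 in replicates 1 to 4, and 1.29 and 1.10 in replicates 5 to 8, with 6 and 5 members lower in the latter comparisons. Of all calls in those 2 comparisons, 66.8% and 65.2% were then higher in MeWo, against 45.3% and 48.2% with TMM. The line values changed sign for HMGCS1 (0.45), NSDHL (0.11), INSIG2 (0.12) and FASN (0.21). In replicates 1 to 4 they did for MVK (0.31), NSDHL (0.056), HSD17B7 (0.25), INSIG1 (0.37), INSIG2 (0.09), SREBF2 (0.26) and FASN (0.16), and in replicates 5 to 8 for LSS (0.18), NSDHL (0.16), INSIG2 (0.16) and FASN (0.25). The cause was not tested.

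Leaving out each library gave 0 to 1 members higher and 1716 to 3756 genes called in MeWo, and sterol interaction medians of 0.69 to 0.76. Where that leaves 3 libraries in a group, the spread comes from all groups. The number 1 to 8 as a replicate block changed no member's call: 21 members stayed higher and 9 lower between lines, and 23 interactions positive. Same-numbered libraries of the 2 lines had correlations of -0.07 to 0.19, and 3 of 8 correlated best with their own number. Each was compared only with the other line's 4 libraries of its own replicate range. Whether same-numbered libraries shared a culture or a run was not tested. No paired analysis was possible for the comparisons within a line because replicates 1 to 4 and 5 to 8 share no number. The edgeR and DESeq2 tests were not run.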
